A study of Mus musculus with 4 samples.

Results

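A set of 32 genes of microglia, the resident macrophages of the central nervous system, was followed in whole spinal cord of mice at postnatal day 8. The members were taken from a list by their symbol in the files, and all 32 were found among 21249 gene symbols with a usable value. That list was made with earlier results of these data known. They comprise 2 transcription factors, 11 receptors and surface or secreted proteins of resting (homeostatic) microglia, 9 immune receptors, adaptors and integrins, the 3 chains of complement component C1q, 6 lysosomal or phagocytic genes and the actin-binding gene Aif1. The libraries were 2 from control cords (Chd7f/+; Olig1-cre) and 2 from conditional knockout (cKO) cords (Chd7f/f; Olig1-cre), all on a mixed background. Cre recombinase, driven by Olig1 in cells of the oligodendrocyte lineage, was thus carried by both groups, and the controls also carried a floxed allele of Chd7, which encodes a chromatin remodeler. The series asks how CHD7 and the transcription factor Sox10 act on the timing of myelination. The labels do not say whether the libraries of a group came from separate animals. The p-values thus measure the spread between these libraries, mostly pooled over genes, which may be technical in the controls. The cKO libraries differed in the sex-linked genes Xist and Ddx3y (below), so they are not repeats of the same sample.

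Microglia derive from the yolk sac rather than from the neural tube, and they need signals through the receptor encoded by Csf1r to survive. Transforming growth factor beta, received by Tgfbr1 and its partner, and the transcription factor Sall1 are known to maintain the homeostatic state, whose markers include P2ry12, Tmem119 and Cx3cr1. C1q opens the classical complement pathway, and in the developing nervous system it is known for tagging synapses that microglia then engulf.

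The regions upstream of 5 members are shown here, from 2 small clusters and from Fcrls, the member with the most positive difference. Gpr34, Tmem119, Selplg and C1qa had no RefSeq promoter entry and could not be shown. P2ry12 and P2ry13 are neighbours on chromosome 3 and were lower in cKO cords, whereas Fcrls and the neighbours C1qb and C1qc on chromosome 4 lay higher. Each run is the 250 bases before the RefSeq gene start, on GRCm38 and on the minus strand, with GAGGAA in capitals, the core letters of sites for the macrophage factor PU.1, or TTCCTC where it lies on the opposite strand. The coordinates are chr3:59262986-59263235 for P2ry12, chr3:59210883-59211132 for P2ry13, chr3:87263525-87263774 for Fcrls, chr4:136886201-136886450 for C1qb and chr4:136892915-136893164 for C1qc.
P2ry12: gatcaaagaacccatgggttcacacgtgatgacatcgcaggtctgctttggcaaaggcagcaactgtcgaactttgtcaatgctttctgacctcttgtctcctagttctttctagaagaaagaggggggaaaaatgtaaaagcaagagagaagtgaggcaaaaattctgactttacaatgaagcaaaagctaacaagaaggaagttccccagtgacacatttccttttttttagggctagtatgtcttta
P2ry13: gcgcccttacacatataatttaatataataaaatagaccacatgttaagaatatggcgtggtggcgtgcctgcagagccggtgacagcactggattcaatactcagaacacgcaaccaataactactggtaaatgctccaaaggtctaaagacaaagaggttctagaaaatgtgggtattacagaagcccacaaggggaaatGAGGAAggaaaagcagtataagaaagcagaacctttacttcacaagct
Fcrls: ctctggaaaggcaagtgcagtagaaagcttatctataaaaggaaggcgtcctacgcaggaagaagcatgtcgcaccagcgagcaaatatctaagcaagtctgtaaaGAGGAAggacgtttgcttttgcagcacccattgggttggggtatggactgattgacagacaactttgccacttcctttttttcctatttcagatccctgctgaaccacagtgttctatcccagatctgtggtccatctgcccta
C1qb: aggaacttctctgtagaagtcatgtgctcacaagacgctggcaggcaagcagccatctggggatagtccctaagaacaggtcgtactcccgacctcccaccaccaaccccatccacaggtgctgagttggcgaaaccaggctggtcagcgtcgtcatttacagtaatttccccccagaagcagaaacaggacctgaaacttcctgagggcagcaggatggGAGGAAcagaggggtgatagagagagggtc
C1qc: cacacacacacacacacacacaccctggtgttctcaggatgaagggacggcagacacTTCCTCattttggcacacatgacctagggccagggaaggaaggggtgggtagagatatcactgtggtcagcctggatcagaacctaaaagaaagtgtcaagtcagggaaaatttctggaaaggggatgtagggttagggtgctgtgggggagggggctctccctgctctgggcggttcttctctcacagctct

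The GAGGAA match began 48 bases before the start of P2ry13, 144 before that of Fcrls and 30 before that of C1qb. The match of C1qc lay on the opposite strand, 193 to 188 bases before the start, and the P2ry12 window held none. Among the 24 members with an entry in the RefSeq promoter table, 13 (54.2%) held GAGGAA on either strand in at least 1 promoter, against 25.9% of all 27025 genes counted the same way. Per promoter, the shares were 14 of 29 (48.3%) among the members and 23.3% of all 32851. The ETS-IRF composite element, a form recognised by PU.1 together with IRF factors such as Irf8, was in none of the 29 and in 2.30% of all promoters. A match is only a run of letters and no binding was measured here.

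Levels are given as FPKM (fragments scaled to transcript length and to the number of mapped fragments), summed per gene. FPKM is per length, so levels can be compared between genes. Of the 32 members, 31 had a mean of at least 1 FPKM and were tested. Rose and fell refer to an adjusted p below 0.05 in limma (Benjamini-Hochberg over 12913 gene sums). A log2 fold change is cKO minus control on the log2(FPKM + 1) scale, which understates changes of low genes. The ± beside it is the standard error of limma, which is mostly pooled over genes and is not the gene's own spread. Relative sequencing depth ran from 1.0 in control 2 to 3.19 in cKO 2. The mean read depth per base of the 9 members that passed ran from 2.49 to 40.9 over the libraries. Chd7 was at 3.52 and 3.12 FPKM in control and 2.52 and 3.38 FPKM in cKO, which overlap. Of 8 myelin genes 7 fell (87.5%, against 6.54% of all gene sums). Mag and Cnp were among those that did not pass without control 1, control 2 or cKO 1. Opalin, Mog, Mobp and Aspa passed without each library in turn, Opalin with log2 fold changes from -2.34 to -1.79. Of 7 tested meningeal and fibroblast genes 6 fell (85.7%, against 6.54% of all gene sums). Dcn, Col1a2, Col3a1 and Igf2 did not pass without control 1, at log2 fold changes of -0.31, -0.40, -0.43 and -0.47. The female transcript Xist went from 55.6 and 51.8 FPKM in control to 19.6 and 0.233 FPKM in cKO, and the Y-linked gene Ddx3y was at 0.072 to 0.195 FPKM in the other libraries and 11.6 FPKM in cKO 2. The part of sex in the results was not tested.

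Across the microglia genes, 7 of 31 fell and 2 rose. Those that fell were Gpr34, P2ry13, Tmem119, P2ry12, Sall1, Selplg and Cx3cr1, and those that rose were Fcrls and C1qb. The 7 make up 22.6% of the members, where 6.54% of all gene sums fell. The 2 make up 6.45%, close to the 4.13% of all gene sums that rose. The members were chosen with earlier results of these data known, so these shares describe the list and are not an independent test. The median log2 fold change was -0.20 over the 31 members and -0.0028 over all gene sums tested. Both cKO libraries lay below both controls for 15 of 31 members (48.4%, against 29.3% of all gene sums) and above them for 5 (16.1%, against 24.3%). Without cKO 2 the counts were 4 lower and 1 higher of 30 tested, where 5.93% of all gene sums fell and 4.29% rose. In bulk tissue, fewer microglia and less RNA of a gene per cell cannot be told apart.

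**Figure D1:**
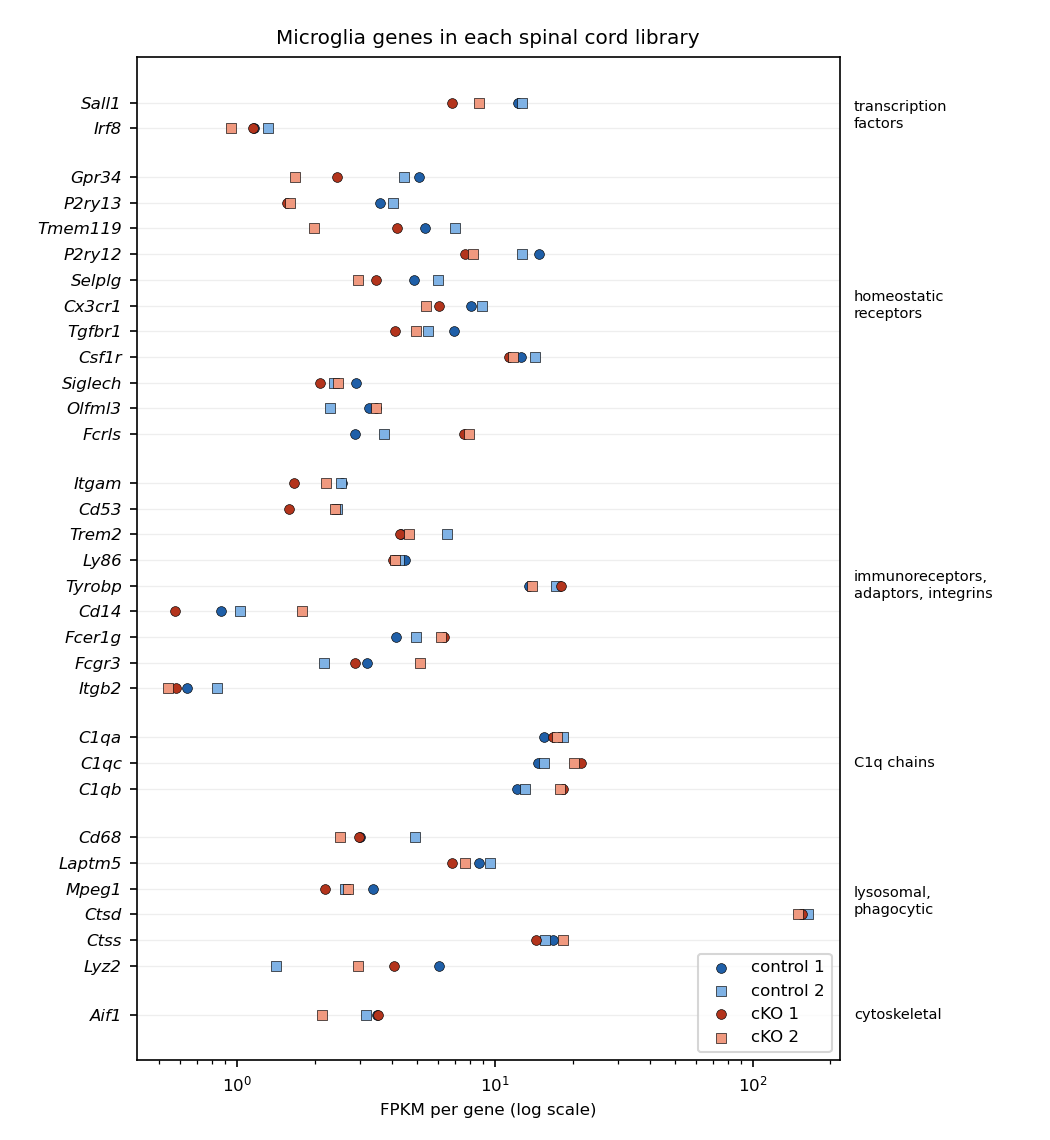
Level of each of the 32 members in each library, in FPKM on a log scale, with controls in blue and cKO in red and 1 point per library. The homeostatic receptors P2ry12, P2ry13 and Gpr34 separate with cKO to the left, and Fcrls, C1qb and C1qc with cKO to the right. In the immunoreceptor group 4 of 9 genes overlap between the groups, as do 4 of 6 lysosomal genes. Over all gene sums tested, both cKO libraries lie below both controls for 29.3% and above them for 24.3%, and the rest overlap.

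Among the transcription factors, Sall1, a zinc finger factor of microglial identity that other neural cells also express, stood at 12.2 and 12.8 FPKM in control and 6.81 and 8.67 FPKM in cKO. Both cKO libraries were below both controls. It fell by 0.64 on the log2 scale (± 0.15, adjusted p = 0.00442), 1.62-fold in mean FPKM. Without cKO 1 the log2 fold change was -0.48 and did not pass. Irf8, an interferon regulatory factor that macrophages and microglia require, was near the floor of the test at 1.17 and 1.32 FPKM in control and 1.15 and 0.948 FPKM in cKO. The difference of -0.13 ± 0.16 on the log2 scale missed the threshold.

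The homeostatic receptors held the largest differences. Of 11 members 6 fell (54.5%, against 6.54% of all gene sums), 1 rose (9.09%, against 4.13%) and 4 did not pass. Their median log2 fold change was -0.50. The group included both the most negative and the most positive value of all members.

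P2ry12 is the ADP receptor through which microglial processes reach towards injured cells. Its level was 14.8 FPKM in control 1, 12.7 in control 2, 7.64 in cKO 1 and 8.25 in cKO 2. The groups did not overlap, and each cKO value was more than 1.5-fold below each control. The log2 fold change was -0.72 ± 0.15 (adjusted p = 0.00105), from a mean of 13.8 ± 1.49 to 7.95 ± 0.429 FPKM (SD, n = 2 each), 1.74-fold lower.

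P2ry13, a closely related ADP receptor, lies 5388 bases from P2ry12 in the files (chromosome 3, 59011814 to 59014804 on mm9, with P2ry12 at 59020193 to 59066753). The controls were at 3.58 and 4.01 FPKM and the cKO libraries at 1.56 and 1.60 FPKM. The cKO libraries nearly coincided, below both controls. It fell by 0.89 on the log2 scale (± 0.15, adjusted p = 8.27e-05), 2.40-fold in mean FPKM.

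Gpr34, a receptor for lysophosphatidylserine, is X-linked (chromosome X, 13209895 to 13217984 on mm9). Its FPKM was 5.09 and 4.43 in control and 2.45 and 1.68 in cKO, again without overlap. The log2 fold change was -0.92 ± 0.16 (adjusted p = 8.27e-05), 2.30-fold lower, and ranked 159th from the most negative of all gene sums tested. P2ry12, P2ry13 and Gpr34 were the members that met the rule of size, both cKO libraries at least 1.5-fold below both controls, as did 2.84% of all gene sums. They also passed without each library in turn. All 3 lie within the loci of longer genes, P2ry12 and P2ry13 in Med12l and Gpr34 in Cask, so reads of the longer genes could be counted to them where strand was not used.

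Tmem119, a membrane protein used to tell microglia from other macrophages, was at 5.37 and 7.0 FPKM in control. The cKO libraries differed, at 4.16 and 2.0 FPKM, and both were below the controls. It fell by 0.86 on the log2 scale (± 0.18, adjusted p = 9.35e-04), and without cKO 2, at -0.47, it did not pass. Selplg, the ligand of selectins, lies 17445 bases from Tmem119 on chromosome 5. Its values were 4.88 and 6.02 FPKM in control and 3.47 and 2.94 FPKM in cKO, all cKO values lower. The log2 fold change was -0.61 ± 0.15 (adjusted p = 0.00626), and it did not pass without control 2 (-0.49) or without cKO 2 (-0.52).

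Cx3cr1, the receptor through which microglia receive the neuronal chemokine Cx3cl1, was at 8.07 and 8.92 FPKM in control and 6.05 and 5.42 FPKM in cKO. The groups did not overlap, with a gap smaller than that of P2ry12. It fell by 0.50 on the log2 scale (± 0.15, adjusted p = 0.0263). The call was lost without control 2 (-0.43), without cKO 1 (-0.56) and without cKO 2 (-0.43).

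Csf1r, the receptor microglia need to survive, was at 12.6 and 14.3 FPKM in control and 11.3 and 11.8 FPKM in cKO. Both cKO values were slightly lower, and the difference of -0.20 ± 0.15 on the log2 scale missed the threshold (adjusted p = 0.454). Tgfbr1, a receptor chain for transforming growth factor beta that many cell types express, was at 6.94 and 5.50 FPKM in control and 4.08 and 4.96 FPKM in cKO. The difference of -0.38 ± 0.16 on the log2 scale missed the threshold (adjusted p = 0.109), and passed without control 2 (-0.53). Siglech, a sialic acid binding lectin, overlapped between the groups at 2.10 to 2.90 FPKM. Olfml3, a secreted matrix protein, had controls of 3.26 and 2.29 FPKM and 3.45 FPKM in each cKO library, and did not pass.

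Fcrls, an Fc receptor-like scavenger protein counted among the homeostatic markers, went the other way. It was at 2.86 and 3.73 FPKM in control and 7.58 and 7.94 FPKM in cKO, and the lower cKO value was well above the higher control value. The log2 fold change was 1.04 ± 0.15 (adjusted p = 7.08e-06), 2.36-fold higher in mean FPKM. It ranked 37th from the most positive of all gene sums tested, and 0.991% of all gene sums had both cKO libraries at least 1.5-fold above both controls. The call held without each library in turn, with log2 fold changes from 0.89 to 1.18.

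**Figure D2:**
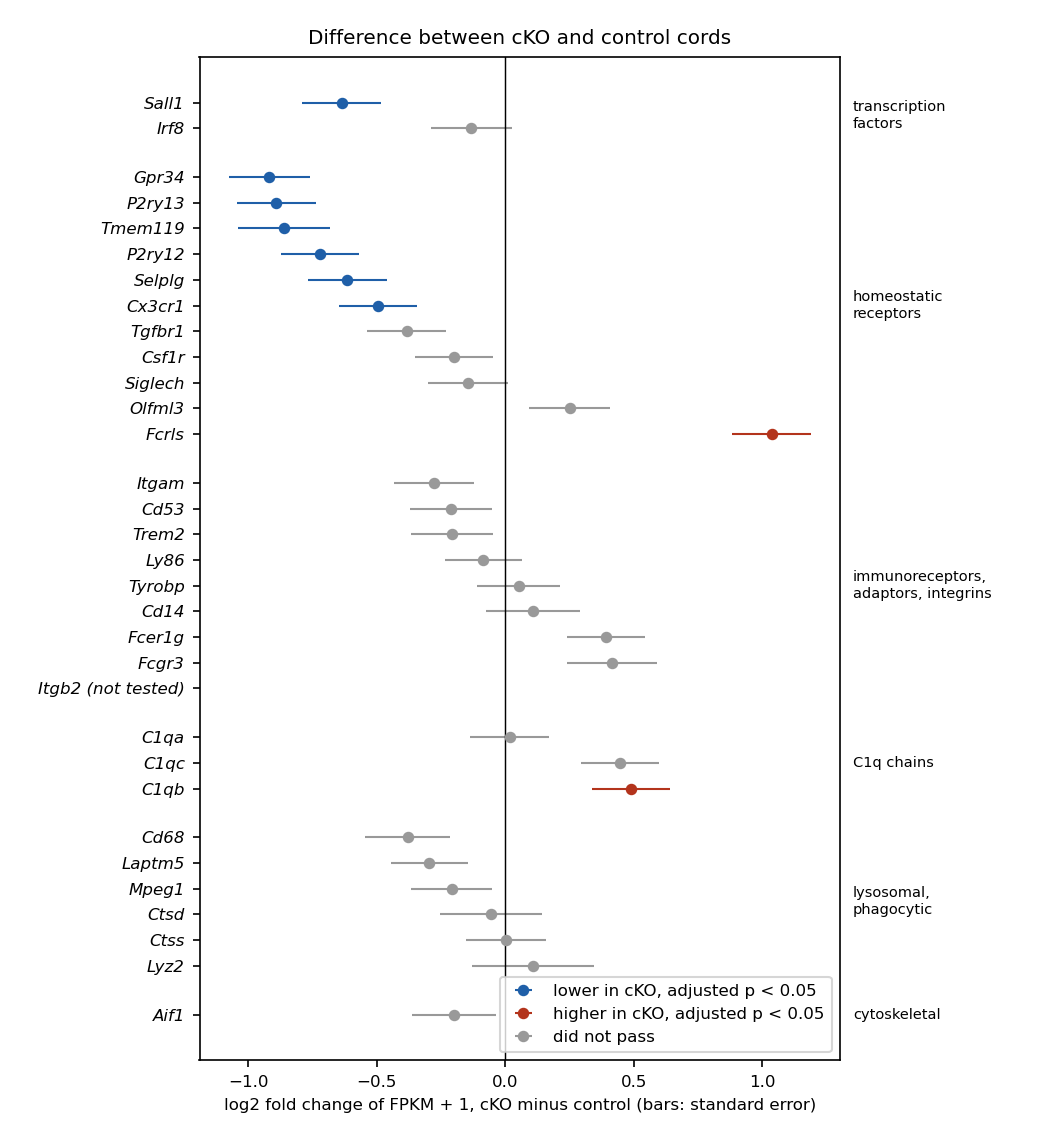
Log2 fold change of FPKM + 1 (cKO minus control) of each tested member, ordered within its role, with bars for the standard error and color for the limma call. Homeostatic genes reach from -0.92 for Gpr34 to 1.04 for Fcrls, and the immunoreceptor and lysosomal genes stay between -0.38 and 0.42.

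Of the C1q chains C1qb rose, C1qc lay higher without passing and C1qa overlapped between the groups. The genes are adjacent on chromosome 4, with 3624 bases between C1qb and C1qc and 3001 between C1qc and C1qa on mm9, and their products assemble into 1 complex. C1qb was at 12.2 and 13 FPKM in control and 18.3 and 17.9 FPKM in cKO. The replicates were close and the groups well apart. It rose by a log2 fold change of 0.49 ± 0.15 (adjusted p = 0.0296), 1.44-fold, and the call was lost without control 1 (0.45), without cKO 1 (0.47) and without cKO 2 (0.51).

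C1qc had the same pattern at 14.7 and 15.5 FPKM in control and 21.5 and 20.3 FPKM in cKO. Its log2 fold change of 0.45 ± 0.15 was just outside the threshold (adjusted p = 0.0538). C1qa was at 15.5 and 18.3 FPKM in control and 16.8 and 17.3 FPKM in cKO, so the cKO libraries lay between the controls. Its log2 fold change was 0.017 ± 0.15, and it changed sign under TPM scaling. C1qb and C1qc kept nearly the same ratio to each other in all libraries, from 0.831 to 0.883. The ratio of C1qb to C1qa was 0.783 and 0.712 in control and 1.09 and 1.03 in cKO. The difference between the chains was not tested.

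Set against P2ry12 within each library, which removes any linear scaling of the libraries, C1qb was at a ratio of 0.821 and 1.02 in control and 2.40 and 2.17 in cKO. The ratio of Fcrls to P2ry12 was 0.193 and 0.293 in control and 0.992 and 0.962 in cKO. Against Csf1r, the ratio of P2ry13 was 0.284 and 0.281 in control and 0.138 and 0.136 in cKO, and that of Fcrls was 0.227 and 0.261 in control and 0.669 and 0.675 in cKO. None of these 4 ratios overlapped between the groups. For C1qb to P2ry12, Fcrls to P2ry12 and Fcrls to Csf1r this was fixed in advance. Both cKO libraries were above both controls in the numerator and below them in the denominator. The ratio of C1qb to C1qc did not overlap either, at 0.831 and 0.842 in control and 0.852 and 0.883 in cKO. Of the pairs computed, only Trem2 to Tyrobp overlapped, at 0.318 and 0.378 in control and 0.238 and 0.334 in cKO. The pairs were picked after the values were seen and are given as a description.

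**Figure D3:**
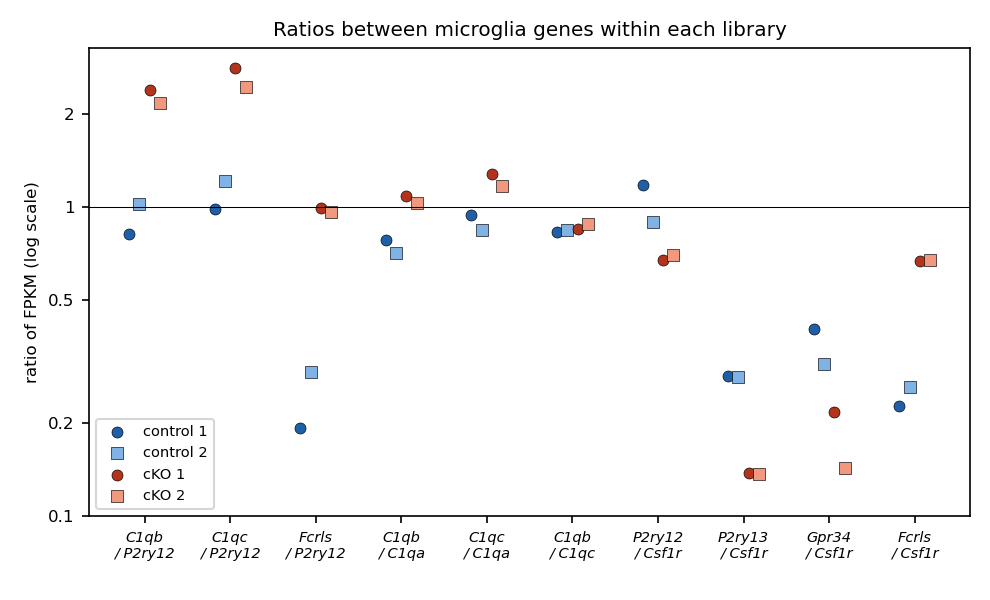
Ratio of the FPKM of pairs of members within each library, on a log scale, with 1 point per library. C1qb to C1qc stays between 0.831 and 0.883 in all libraries, whereas C1qb to P2ry12 is at most 1.02 in control and at least 2.17 in cKO.

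Among the immunoreceptors, their adaptors and the integrins, none of 8 tested members passed in limma (2 had an unadjusted p below 0.05). Their differences went both ways, from -0.28 for Itgam to 0.42 for Fcgr3 on the log2 scale, with a median of -0.017. Trem2, a lipid-sensing receptor of phagocytes, was at 4.31 and 6.53 FPKM in control and 4.30 and 4.67 FPKM in cKO. Tyrobp, the adaptor that carries the signal of Trem2, was at 13.6 and 17.3 FPKM in control and 18.1 and 14 FPKM in cKO. Both overlapped between the groups. Fcer1g, the common gamma chain of Fc receptors, was higher in both cKO libraries, at 4.13 and 4.96 FPKM in control against 6.32 and 6.18 FPKM. The difference of 0.39 ± 0.15 on the log2 scale missed the threshold (adjusted p = 0.0913) and passed without control 2 (0.50). Fcgr3, an Fc receptor for immunoglobulin G, had controls of 3.19 and 2.17 FPKM and cKO values of 2.87 and 5.10 FPKM. The difference of 0.42 ± 0.18 on the log2 scale missed the threshold. It passed without control 1 (0.62) and without cKO 1 (0.75), and was 0.088 without cKO 2. Reads of other Fc gamma receptor genes with like sequence could be counted to it.

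The other members of this group were Itgam, the CD11b integrin chain, Cd53, a tetraspanin of leukocytes, Ly86, a partner of a Toll-like receptor homolog, and Cd14, a coreceptor for lipopolysaccharide. Their log2 fold changes ran from -0.28 to 0.11 and did not pass. Ly86 was the steadiest, at 4.02 to 4.49 FPKM over the 4 libraries. Cd14 had controls of 0.867 and 1.03 FPKM and cKO values of 0.578 and 1.79 FPKM, a wider spread within cKO than between the groups. Itgb2, the beta chain that pairs with Itgam, was under the filter at 0.543 to 0.836 FPKM and was not tested.

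Lysosomal and phagocytic genes did not pass in any of 6 cases in limma (1 had an unadjusted p below 0.05), with a median log2 fold change of -0.13. Ctsd, an aspartic protease of lysosomes in nearly all cells, was the most abundant member, with controls of 154 and 164 FPKM and cKO values of 156 and 149.7 FPKM. Ctss, a cysteine protease more restricted to macrophages, was at 16.8 and 15.7 FPKM in control and 14.4 and 18.4 FPKM in cKO. Both overlapped, with log2 fold changes of -0.055 and 0.0028. Cd68, a lysosomal membrane glycoprotein, was at 2.99 and 4.90 FPKM in control and 2.96 and 2.51 FPKM in cKO, and its log2 fold change of -0.38 ± 0.17 passed only without control 1 (-0.66) among the left-out libraries. Laptm5, a lysosomal membrane protein of blood-derived cells, was lower in both cKO libraries at 6.85 and 7.65 FPKM against 8.65 and 9.60 FPKM and did not pass (-0.30 ± 0.15, adjusted p = 0.223).

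Mpeg1, a pore-forming protein of macrophages, overlapped between the groups at 2.20 to 3.37 FPKM. Lyz2, lysozyme of myeloid cells, differed most within a group, with controls of 6.08 and 1.41 FPKM and cKO values of 4.05 and 2.94 FPKM. Its log2 fold change was 0.89 without control 1 and -0.67 without control 2, past the threshold each time and in opposite directions, so no direction is given. Control 1 also had the highest sum over 12 border macrophage markers (8.38 FPKM, against 3.69 FPKM in the other control and 4.65 and 3.91 FPKM in cKO) and over 8 meningeal and fibroblast genes (274 FPKM, against 60.3 FPKM in the other control and 35.5 and 38.3 FPKM in cKO). Their part in the Lyz2 values was not tested. Reads of the near-identical gene Lyz1 could be counted to Lyz2. Aif1, the calcium-binding protein IBA1 used to stain microglia, was at 3.49 and 3.17 FPKM in control and 3.51 and 2.14 FPKM in cKO and did not pass.

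**Figure D4:**
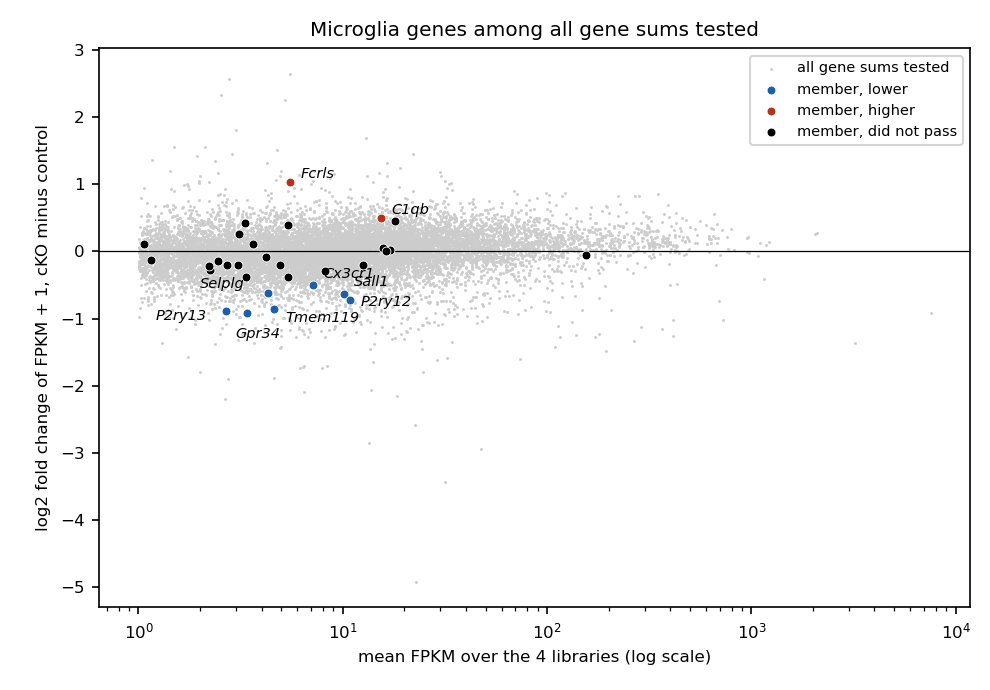
Log2 fold change of FPKM + 1 (cKO minus control) against mean FPKM on a log axis for the 12913 gene sums tested (grey), with the 31 tested members on top. The 7 members that fell lie between -0.92 and -0.50, and Fcrls at 1.04 stands apart from the other members.

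Signals that microglia receive were looked at next. Of 8 tested ligand genes, Csf1 and Tgfb3 fell (25.0%, against 6.54% of all gene sums) and none rose (median log2 fold change 0.022). Csf1, a ligand of Csf1r, was at 9.34 and 11.0 FPKM in control and 4.87 and 8.90 FPKM in cKO (-0.55 ± 0.17, adjusted p = 0.0335), and it did not pass without control 2 (-0.44) or cKO 1 (-0.17). Tgfb3 went from 2.78 and 2.64 FPKM to 1.41 and 1.37 FPKM (-0.64 ± 0.15, adjusted p = 0.00461), and did not pass without cKO 1 (-0.65). Il34, the other ligand of Csf1r, was at 4.57 and 4.84 FPKM in control and 3.66 and 3.75 FPKM in cKO, and Cx3cl1 at 56.3 and 59.4 FPKM in control and 84.0 and 69.0 FPKM in cKO, and neither passed. Of 10 tested transforming growth factor beta partners, Smad7 fell (10.0%, against 6.54% of all gene sums) and the other 9 did not pass. Smad7, an inhibitor of the receptor, went from 10.6 and 11.7 FPKM to 4.35 and 5.88 FPKM (-1.0 ± 0.16, limma adjusted p = 1.60e-05).

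Of 17 other complement genes 8 were high enough to test. Of these 3 fell (37.5%, against 6.54% of all gene sums), Cd59a and Cfp among them. Cd59a, a membrane inhibitor of the terminal complement complex, was at 9.54 and 10.2 FPKM in control and 4.34 and 5.42 FPKM in cKO (-0.89 ± 0.15, adjusted p = 7.45e-05). Cfp, properdin, went from 3.84 and 6.18 FPKM to 3.32 and 2.91 FPKM (-0.52 ± 0.16), and did not pass without control 2 (-0.23), cKO 1 (-0.59) or cKO 2 (-0.45). C3 and C3ar1, whose products lie downstream of C1q, were under the filter at 0.416 to 1.31 and 0.318 to 0.502 FPKM.

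Of 26 other microglia genes that could be tested, Slc2a5, a fructose transporter, and P2rx4, an ATP-gated channel, fell and none rose (median log2 fold change -0.12). The share that fell, 7.69%, was near the 6.54% of all gene sums. Slc2a5 went from 1.31 and 1.93 FPKM to 0.682 and 0.554 FPKM, and P2rx4 from 7.97 and 7.79 FPKM to 4.88 and 5.52 FPKM, without overlap in either, and P2rx4 did not pass without cKO 1 (-0.45). The gene of PU.1, listed in the files as Sfpi1, was at 1.43 and 2.76 FPKM in control and 1.75 and 2.53 FPKM in cKO. Of 10 tested genes of activated or phagocytic microglia, Cd9 and Csf1 fell (20.0%, against 6.54% of all gene sums) and none rose. Cd9, a tetraspanin that oligodendrocytes also express, was at 144 and 145 FPKM in control and 77.8 and 105 FPKM in cKO, and did not pass without control 1 (-0.68), control 2 (-0.67) or cKO 1 (-0.47). Spp1, osteopontin, was at 8.45 and 9.76 FPKM in control and 7.35 and 6.41 FPKM in cKO, and Lpl, lipoprotein lipase, at 1.72 and 1.66 FPKM in control and 0.992 and 1.20 FPKM in cKO, and neither passed. The other 10 genes of the list had a mean under 1 FPKM and were not tested. Of these, Cst7 was at 0.042 and 0.084 FPKM in control and 0.299 and 0.449 FPKM in cKO, and the chemokine Ccl4 at 0.074 and 0.150 FPKM in control and 0.478 and 0.713 FPKM in cKO, with cKO above control in both, and Clec7a was lower in both cKO libraries. Of 20 lysosome genes of most cell types, Npc1, a cholesterol exporter, fell (-0.75 ± 0.16, and -0.52 without cKO 1, which did not pass) and none rose (median log2 fold change -0.26). That is 5.0% of them, near the background.

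Markers of other immune cells were mostly under the filter. Of 12 border macrophage markers 10 had a mean under 1 FPKM, among them Mrc1 (0.323 to 0.963 FPKM), Cd163 and Lyve1, and neither of the others, Pf4 and Stab1, passed in limma (0 at an unadjusted p below 0.05). The highest value of any of the 12 was 1.85 FPKM. All 10 measured lymphocyte markers were under the filter, and Cd3e and Cd3g were listed at 0 in every library. Ccr2, a marker of monocytes, was at 0.010 and 0.020 FPKM in control and 0.033 and 0.031 FPKM in cKO. Ly6c1, which monocytes and also endothelial cells express, was the most abundant gene of the monocyte and neutrophil list, at 13.2 and 16.5 FPKM in control and 12.04 and 8.93 FPKM in cKO. It was lower in both cKO libraries and did not pass (-0.47 ± 0.16, limma adjusted p = 0.0529). Of 3 tested genes of that list 2 rose (66.7%, against 4.13% of all gene sums), and the other 8 measured genes had a mean under 1 FPKM. The 2 were S100a8 and S100a9, calcium-binding proteins of neutrophils. S100a8 went from 0.906 and 0.778 FPKM to 3.31 and 2.0 FPKM, and S100a9 from 1.14 and 0.424 FPKM to 3.39 and 1.72 FPKM. S100a8 and S100a9 did not pass without cKO 1 (0.70 and 0.64 on the log2 scale). Their part in the microglia values was not tested.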

How the data were processed

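The authors deposited 1 table per library with FPKM per RefSeq transcript and coverage, a signal of mean read depth per base, per the file headers. The submitters' processing notes name CASAVA, TopHat, Cufflinks, Cuffdiff and the build mm9, without versions or settings. The kit was TruSeq RNA, per the labels' protocols, and use of strand in counting is not given in the sources used here. Confidence bounds and read totals were not used here, and relative depth is the ratio of deposited coverage to FPKM.

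Each table has 28107 rows, matched by transcript identifier, position and length. Rows not marked OK in all 4 libraries (315) were dropped, and FPKM was summed per symbol over rows of at least 300 bases. Gene sums with a mean of at least 1 FPKM were tested as log2(FPKM + 1) in a genotype model (limma 3.58.1, R 4.3.3) with a mean-variance trend and adjustment over 12913 gene sums. The spread has 36.3 prior and 2 residual degrees of freedom, so it is mostly pooled over genes. The fit was also run on simulated data with independent noise and no sex, depth or library effects. That run cannot show how the fit behaves where such effects are present. An exact permutation test of 2 against 2 libraries cannot give a two-sided p below 0.333 and was not used.

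The members and lists were chosen with earlier results of these data known. All 32 members are named, and from each list up to 4 genes past the threshold with the smallest p. Levels of other list genes (such as Sfpi1, C3, Mrc1, Ly6c1, Spp1 and Cst7), the ratios and the 5 promoters were picked after their values were seen. Of 205 list symbols, 2 were not matched, and some list genes are counted but not reported here by name. Myelin, meningeal, astrocyte, neuron, vascular and cell division lists served as checks. In these, 7 of 8, 6 of 7, 0 of 8, 0 of 8, 0 of 8 and 0 of 8 tested genes fell, and 0, 0, 1, 1, 0 and 2 rose. Those that rose are 12.5% of the astrocyte, 12.5% of the neuron and 25.0% of the cell division genes. Over all gene sums 6.54% fell and 4.13% rose. An unadjusted limma p below 0.05 was reached by 4 of 8 astrocyte, 4 of 8 neuron, 2 of 8 vascular and 2 of 8 cell division genes. The median log2 fold change was -0.21 for the astrocyte and 0.39 for the neuron genes. Alternatives changed the pseudocount, filter, scaling, variance model, summing, replicate block and libraries. Promoters are those of RefSeq on GRCm38, matched by symbol for 24 members, and files' coordinates are mm9 with starts counted from 1.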

Additional observations from a re-analysis of the deposited data

How the results depend on the processing

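P2ry12, P2ry13, Gpr34 and Fcrls passed under every alternative that tested them except 2, no filter on low values and summing all rows of a gene, short transcripts included. Those settings left 0 lower and 1 higher, and 30 lower and 23 higher, of all gene sums in limma, and no member either way, with 6 lower and 4 higher, and 8 lower and 4 higher, members at an unadjusted p below 0.05. At that level 1839 lower and 1281 higher of 21249, and 1472 and 1015 of 13171, gene sums passed. All gene sums gave 845 lower and 533 higher calls, and 426 and 310 under quantile scaling, 460 and 204 under TPM scaling, and 408 and 179 with the highest row of a gene. The members gave 7 lower and 2 higher, and 4 and 1 under quantile scaling, 4 and 1 with the highest row, 6 and 1 under TPM scaling, and 3 and 3 of 14 with a mean of at least 5 FPKM. Cx3cr1 did not pass under median-of-ratios, quantile or TPM scaling, C1qb under quantile or TPM scaling, and Tmem119 and Selplg under quantile scaling. With 1 library left out, which leaves a lone library assumed to vary like the other group, lower and higher calls ran from 277 to 900 and 107 to 555 over all gene sums, and 4 to 8 and 1 to 3 over the members. The median log2 fold change of the homeostatic receptors, -0.50, was -0.56 with a pseudocount of 0.1, -0.38 with a mean of at least 5 FPKM and -0.45 under quantile scaling, and ran from -0.56 to -0.47 with 1 library left out. Members that did not pass changed sign when 1 library was left out, with ranges of -0.46 to 0.044 for Trem2, -0.12 to 0.23 for Tyrobp, -0.094 to 0.13 for C1qa, -0.16 to 0.17 for Ctss, -0.67 to 0.89 for Lyz2 and -0.46 to 0.060 for Aif1. Under TPM scaling C1qa was at -0.011 and Ctss at -0.025. The cause of these changes was not tested.

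Same-numbered libraries tended to deviate in opposite directions (correlation of -0.24 across gene sums), and the main model did not pair them. With a single difference per group, the correlation cannot show whether same-numbered libraries shared a batch. With a replicate block 645 gene sums fell and 351 rose instead of 845 and 533, and 6 members fell and 1 rose. With crossed numbers in the block, added after the data were seen, 1235 gene sums fell and 943 rose, and 8 members fell and 5 rose. Genes under about 1 FPKM, such as Itgb2, are limited by depth.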

Other observations

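The 3 members that fell without depending on any 1 library lie within the loci of longer genes. P2ry12 and P2ry13 lie inside the locus of Med12l (chromosome 3, 58810900 to 59122334 on mm9), and Gpr34 inside that of Cask (chromosome X, 13094208 to 13423667). Med12l was at 3.91 and 3.15 FPKM in control and 3.38 and 4.18 FPKM in cKO, and Cask at 16.1 and 12.9 FPKM in control and 16.6 and 17.2 FPKM in cKO. Neither host gene passed (limma adjusted p = 0.813 and 0.428), and neither was lower in both cKO libraries. Reads from host introns and from these receptors cannot be told apart where strand was not used.

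Itgam is the member with 2 transcripts in the files, which differ by 3 bases in length. Transcript NM_001082960 had controls of 1.57 and 0.0032 FPKM and cKO values of 1.66 and 1.05 FPKM, and NM_008401 had controls of 0.995 and 2.53 FPKM and cKO values of 0.0013 and 1.17 FPKM. Each was near 0 in 1 library where the other held nearly all of the sum, and the sum stayed between 1.66 and 2.56 FPKM.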
